A study of Mus musculus with 3 samples.

Results

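Described here are the 9 genes of interleukin 2, its receptor and the signalling that follows it, taken by symbol from a table of 17796 genes: Il2, Il2ra, Il2rb, Il2rg, Jak3, Stat5a, Stat5b, Cish and Socs2. All 9 were found and all 9 had a mean of at least 1 CPM (reads per gene scaled to a total of 1000000 per library) over the libraries. The libraries were made from polyadenylated RNA of spleen T cells of C57BL/6 mice and carried the labels Old + Fumarate, Old and Young. Old + Fumarate mice had received fumarate, a metabolite of the tricarboxylic acid cycle, at 10 mg/kg 3 times a week over 2 months. Old mice had received vehicle on that schedule, and for both the stated age was 24 months, without saying at which point of the course. Young mice were 2 months old and labelled vehicle, with no course stated. After isolation, the cells of all groups were stimulated for 3 days on plate-bound antibodies against CD3 (2 ug/ml) and CD28 (5 ug/ml), and the medium held added interleukin 2 at 100 IU/ml. Every group therefore met the same dose of the cytokine from outside, and what was measured is RNA, not receptor protein or signalling. Each group had 1 library, with nothing said of how many mice it came from, so the differences below come without a replicate check and without p-values.

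Interleukin 2 is secreted by T cells after their antigen receptor is triggered and acts on the same cells and their neighbours. Its receptor has an alpha chain (Il2ra, CD25) that raises affinity, a beta chain (Il2rb) shared with interleukin 15 and a common gamma chain (Il2rg) shared with several cytokines. The beta chain carries the kinase JAK1 and the gamma chain JAK3, and their activity lets STAT5A and STAT5B enter the nucleus, where they raise transcription of genes such as Il2ra, Cish and Socs2. The proteins CISH and SOCS2 restrain cytokine signalling in turn, and strong interleukin 2 signalling lowers transcription of Il2 itself.

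The libraries differed in depth and in the RNA of other blood cells. Depth, estimated from the worth of 1 read in low values, was 13.9 M reads for Old + Fumarate, 17.3 M for Old and 41.0 M for Young. Erythroid and platelet markers (11 genes) summed to 175 CPM in Old + Fumarate, 1320 CPM in Old and 11.6 CPM in Young, and basophil and mast cell markers (10 genes) to 87.5 CPM in Old + Fumarate, 488 CPM in Old and 6.03 CPM in Young. All 20 tested markers of these lists were past 1.5-fold lower in Old + Fumarate than in Old and past 1.5-fold higher in Old than in Young. Of all tested genes, 11.2% were past 1.5-fold lower in Old + Fumarate than in Old, and 16.5% higher in Old than in Young. T cell identity genes (18 genes) summed to 5196 CPM in Old + Fumarate, 4372 CPM in Old and 4729 CPM in Young. Their median log2 ratio was 0.22 for Old + Fumarate over Old, −0.30 for Old over Young and −0.16 for Old + Fumarate over Young, so that for Old + Fumarate over Young the median and the sum, in which Thy1 weighs heavily, differ in direction. Natural killer cell markers, 8 of 10 with a value, summed to 117 CPM in Old + Fumarate, 98.0 CPM in Old and 35.6 CPM in Young, with 6 of 7 tested higher in Old than in Young. B cell markers stayed between 6.83 and 13.7 CPM in sum over 10 genes and dendritic cell markers between 21.7 and 77.3 CPM over 5. Macrophage and monocyte markers (8 of 10 with a value) summed to 58.7 CPM in Old + Fumarate, 83.3 CPM in Old and 91.1 CPM in Young, most of it from Ctss, which many cells use. Their receptor Csf1r was under 0.001 CPM in Old + Fumarate and Young and at 3.74 CPM in Old, and 5 of 6 tested markers were lower in Old + Fumarate than in Old. The part of these other cells in the values below was not tested. In bulk RNA, fewer cells of a type and less RNA per cell cannot be told apart.

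**Figure D1:**
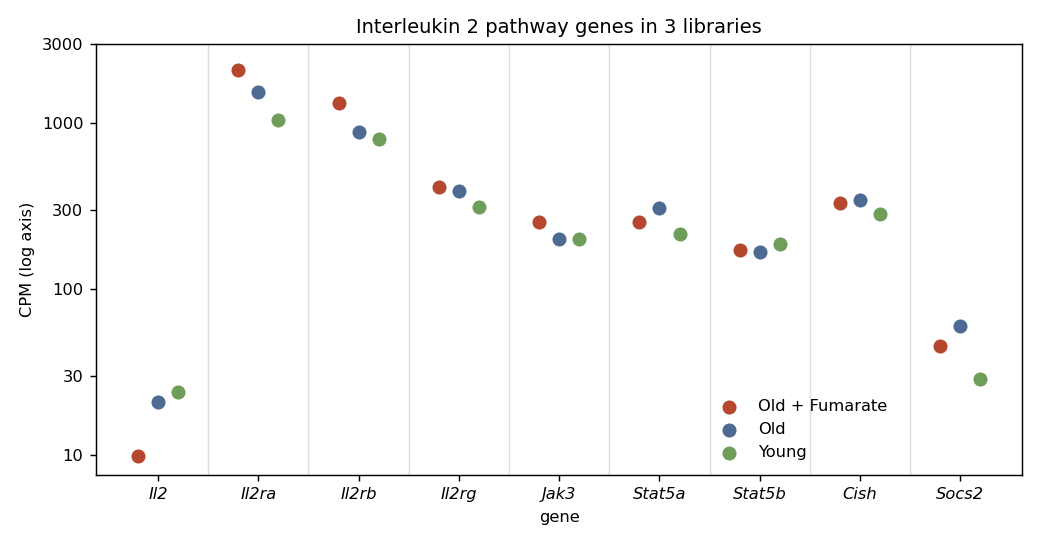
CPM of the 9 genes (log axis) in the Old + Fumarate, Old and Young libraries, 1 point per library and no error bar because each group has 1 library. Il2 was lowest in Old + Fumarate at 9.91 CPM, while Il2ra was highest there at 2086 CPM.

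The cytokine gene and the gene of its high-affinity chain lay at opposite ends of the 9 genes for Old + Fumarate over Young, so the sequence just before each start is shown first, as background to both. Each is 250 bases of RefSeq (GRCm38.p6), 5′ to 3′ on the gene's strand, at chr3:37125955-37126204 on the minus strand for Il2 and chr2:11642542-11642791 on the plus strand for Il2ra. Capitals mark GGAAA or its reverse complement TTTCC, the core letters of an NFAT site. NFAT is a transcription factor that antigen receptor signalling brings into the nucleus and that acts on both genes.
Il2: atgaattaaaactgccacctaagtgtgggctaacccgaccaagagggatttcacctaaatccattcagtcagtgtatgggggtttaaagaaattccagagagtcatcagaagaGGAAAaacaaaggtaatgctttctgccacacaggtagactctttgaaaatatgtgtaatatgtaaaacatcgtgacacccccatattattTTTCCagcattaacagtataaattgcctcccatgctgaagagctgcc
Il2ra: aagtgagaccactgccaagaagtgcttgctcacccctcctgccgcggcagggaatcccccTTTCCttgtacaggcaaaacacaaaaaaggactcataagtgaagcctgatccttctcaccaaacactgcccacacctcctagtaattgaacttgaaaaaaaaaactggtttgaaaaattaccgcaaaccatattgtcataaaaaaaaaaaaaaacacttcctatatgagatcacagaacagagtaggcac

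The Il2 window held 2 such matches, at 137 to 133 and 47 to 43 bases before the start, and the Il2ra window held 1, at 190 to 186 bases. Among 32536 windows of the same length before RefSeq starts, 55.7% held at least 1 match and 21.5% at least 2, so these short letters are common. Of the 9 genes, 7 had entries, 9 windows in all. None of these 9 windows held TTCNNNGAA, a STAT motif found in 7.04% of all windows, or TGANTCA, an AP-1 motif found in 6.73%, on either strand. That says only that these letters are not within these windows.

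Il2, the cytokine gene (chr3:37120523-37125959, mm10), was at 9.91 CPM in Old + Fumarate, 20.8 CPM in Old and 24.0 CPM in Young. It had the lowest CPM of the 9 genes in each library, resting on 137 estimated reads in Old + Fumarate, 359 in Old and 985 in Young. Old + Fumarate stood below the other libraries, which lay close to each other. For Old + Fumarate over Old the log2 ratio of CPM + 1, the measure used for all limits here, was −0.998. Its plain CPM ratio was 0.477, with a 95% counting interval of −1.37 to −0.78 on the log2 scale. Old + Fumarate over Young gave −1.20 (interval −1.55 to −1.02) and Old over Young −0.20 (interval −0.39 to −0.03). Counting error is all that these intervals cover, and they are for the plain CPM ratio. Helper T cells, which carry CD4, are the main makers of interleukin 2. Cd4 was at 181 CPM in Old + Fumarate, 180 CPM in Old and 238 CPM in Young, and Cd40lg, an activation-induced ligand of helper cells, at 13.4 CPM in Old + Fumarate, 10.7 CPM in Old and 50.5 CPM in Young. Of 6 genes of the CD4 and CD8 lineages, none was past 1.5-fold for Old + Fumarate over Old (median 0.17), 1 was lower for Old over Young (median −0.35) and 2 were lower for Old + Fumarate over Young (median −0.24). The part of lineage shares in the level of Il2 was not tested. Adad1 overlaps the 3′ end of Il2 over 1408 bases on the other strand, and whether reads were counted by strand is not stated in the sources used here. Of the 50-base windows of the longest Il2 transcript, 12.6% also occur in Ntan1 transcripts, so a part of its reads could be assigned to either.

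Il2ra, the alpha chain (chr2:11642807-11693193), was at 2086 CPM in Old + Fumarate, 1532 CPM in Old and 1047 CPM in Young. The order of the 3 libraries was thus the reverse of that for Il2. Old + Fumarate over Young was 1.99-fold by CPM, a log2 ratio of 0.99 (interval 0.97 to 1.02). The steps between were smaller, at 0.45 for Old + Fumarate over Old (interval 0.42 to 0.47) and 0.55 for Old over Young (interval 0.53 to 0.57). Neither of these steps reached the limit of 1.5-fold, which is 0.58 on the log2 scale.

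Il2rb, the beta chain (chr15:78479256-78495271), was at 1314 CPM in Old + Fumarate, 883 CPM in Old and 807 CPM in Young. By CPM Old + Fumarate stood apart, with the other libraries near each other. Its log2 ratio over Old was 0.57 (interval 0.54 to 0.60), just under the limit, and 2.32% of tested genes had a ratio at least as high. Over Young it was 0.70 (interval 0.68 to 0.73), and Old over Young was 0.13 (interval 0.10 to 0.16). With 3 other scalings of the libraries the ratio over Old passed the limit, at 0.60 with TMM, 0.60 with median-of-ratios and 0.64 with upper-quartile scaling. With the T cell identity scaling described below it was 0.37, and Old over Young was then 0.63, past the limit, so on that scale Old + Fumarate does not stand apart. Natural killer cells also carry this chain, and the summed markers given above for them had the same order of libraries as Il2rb. In the aged libraries the largest values in that sum were of Eomes and Gzma. Eomes was at 47.4 CPM in Old + Fumarate, 26.9 CPM in Old and 29.7 CPM in Young, an order other than that of Il2rb. Gzma was at 31.0 CPM in Old + Fumarate, 30.2 CPM in Old and 0.537 CPM in Young. The markers of the list were mixed for Old + Fumarate over Old, with 2 of 7 tested higher, 3 lower and a median of −0.38. The part of natural killer cells in the result was not tested.

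Il2rg, the common gamma chain (chrX:101264378-101268255), was at 409 CPM in Old + Fumarate, 389 CPM in Old and 313 CPM in Young. It varied least of the 3 chains across the libraries, with log2 ratios of 0.07 for Old + Fumarate over Old, 0.31 for Old over Young and 0.38 for Old + Fumarate over Young. The readthrough gene Gm20489 covers it on the same strand and holds 42.0% of its 50-base windows, at 0.865 CPM in Old + Fumarate and under 0.001 CPM in Old and Young.

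Per length of all annotated exons merged, the 3 chains had nearly equal levels in Young and drew apart in Old + Fumarate. For Il2ra the merged exons hold 5209 bases and the longest transcript 4412. Its level per length, and so the near equality in Young, depends on that choice. In CPM per kilobase of exon, Il2ra was at 401, Il2rb at 307 and Il2rg at 245 in Old + Fumarate. In Old, Il2ra was at 294, Il2rb at 206 and Il2rg at 233, and in Young Il2ra was at 201, Il2rb at 188 and Il2rg at 188. Ratios of chains within a library do not depend on how libraries are scaled. Il2ra over Il2rg by CPM was 5.10 in Old + Fumarate (95% interval 4.95 to 5.25), 3.94 in Old (3.84 to 4.05) and 3.34 in Young (3.28 to 3.41). Il2rb over Il2rg was 3.21 in Old + Fumarate (3.12 to 3.31), 2.27 in Old (2.21 to 2.34) and 2.58 in Young (2.52 to 2.63). Il2ra over Il2rb was 1.59 in Old + Fumarate (1.56 to 1.62), 1.73 in Old (1.70 to 1.77) and 1.30 in Young (1.28 to 1.32). No interval of these 3 ratios overlapped another library's, so the differences exceed counting error, while the spread between mice is unknown.

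Jak3, the kinase bound to the gamma chain (chr8:71676296-71690575), was at 254 CPM in Old + Fumarate, 201 CPM in Old and 201 CPM in Young. By CPM, Old and Young did not differ beyond counting error (log2 ratio 0.00, interval −0.06 to 0.06), while Old + Fumarate over Old was 0.33 (interval 0.27 to 0.40). Over Jak1, the partner kinase on the beta chain, Jak3 was at 0.888 in Old + Fumarate (0.849 to 0.930), 0.773 in Old (0.739 to 0.808) and 0.734 in Young (0.714 to 0.755). The intervals of Old and Young overlapped, and that of Old + Fumarate stood above both.

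The 2 STAT5 genes lie next to each other on chromosome 11 and did not follow the same order. Stat5a (chr11:100859351-100885169) was at 255 CPM in Old + Fumarate, 307 CPM in Old and 215 CPM in Young, so that Old was highest. Stat5b (chr11:100780731-100850724) was at 172 CPM in Old + Fumarate, 167 CPM in Old and 187 CPM in Young, a narrow range. Stat5a over Stat5b was 1.48 in Old + Fumarate (1.40 to 1.56), 1.84 in Old (1.76 to 1.93) and 1.15 in Young (1.11 to 1.18). The log2 ratio of Stat5a was −0.27 for Old + Fumarate over Old and 0.52 for Old over Young (interval 0.47 to 0.57). That of Stat5b was 0.05 for Old + Fumarate over Old, with an interval of −0.03 to 0.13 that includes 0. Of the 50-base windows of the longest Stat5a transcript 10.8% also occur in Stat5b transcripts, and 11.8% of those of Stat5b in Stat5a, so a part of their reads could be assigned to either.

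Cish and Socs2, genes that STAT5 induces and whose products restrain the pathway, moved unequally. Cish (chr9:107296026-107302784) was at 332 CPM in Old + Fumarate, 344 CPM in Old and 284 CPM in Young. The aged libraries did not differ beyond counting error (log2 ratio −0.05, interval −0.11 to 0.00), and Old over Young was 0.28. Socs2 (chr10:95385362-95417180) was at 45.3 CPM in Old + Fumarate, 59.6 CPM in Old and 28.9 CPM in Young, on 627 estimated reads in Old + Fumarate, 1030 in Old and 1183 in Young. Its log2 ratio was −0.39 for Old + Fumarate over Old (interval −0.54 to −0.25), 1.02 for Old over Young (interval 0.93 to 1.17) and 0.63 for Old + Fumarate over Young (interval 0.51 to 0.79). Cish over Socs2 was 7.32 in Old + Fumarate (6.74 to 7.98), 5.77 in Old (5.40 to 6.17) and 9.83 in Young (9.26 to 10.4). Gm17040 and Gm17041 overlap Cish on the other strand, and 13.2% of the windows of the longest Cish transcript occur in transcripts of other genes. For Socs2 that share was 7.23%.

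**Figure D2:**
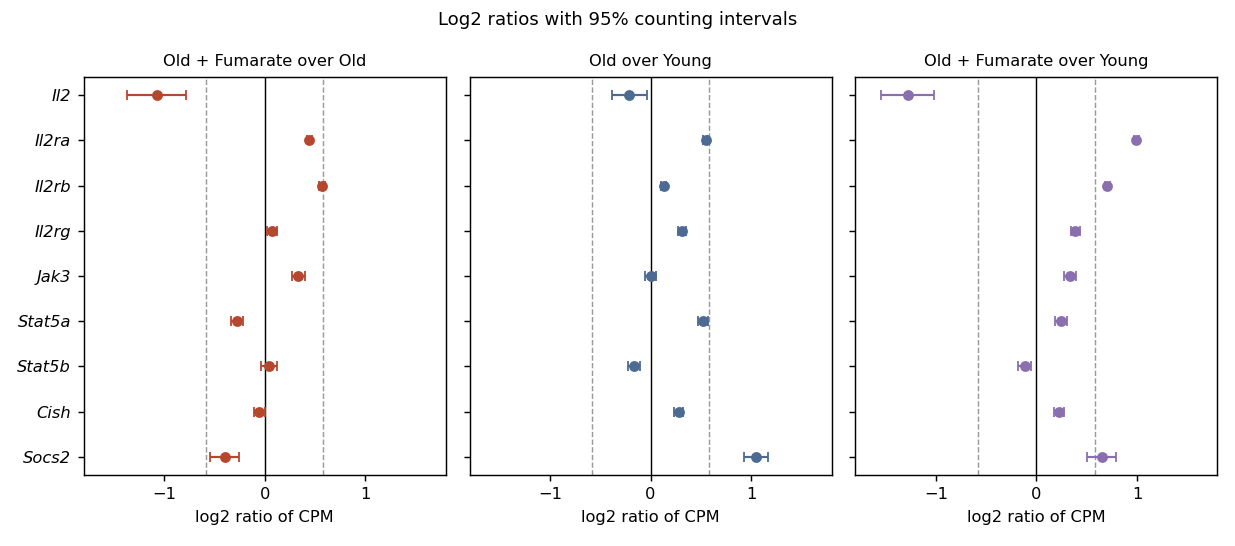
Log2 ratio of CPM for each gene in the 3 pairs of libraries, with 95% Clopper-Pearson intervals on estimated reads that cover counting error alone. Dashed lines mark 1.5-fold (0.58) in each direction, and Il2 was the only gene below the lower line, for Old + Fumarate over Old and over Young.

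Counted together, few of the 9 genes were past 1.5-fold, and their shares are best read beside those of all 13750 tested genes. Old + Fumarate over Old had 0 of 9 higher, against 2.15% of tested genes, and 1 of 9 was lower (Il2), against 11.2%. The median of the 9 log2 ratios was 0.05, and that of all tested genes −0.02. Counting intervals lay above 0 for 4 genes (Il2ra, Il2rb, Il2rg and Jak3), below 0 for 3 (Il2, Stat5a and Socs2) and across 0 for 2 (Stat5b and Cish). For Old over Young, 1 of 9 was higher (Socs2), against 16.5% of tested genes, and 0 of 9 were lower, against 6.73%, with a median of 0.28 beside 0.03 over all tested genes. Set against Young, Old + Fumarate had 3 of 9 genes higher (Il2ra, Il2rb and Socs2), against 10.5%, and 1 lower (Il2), against 6.79%, with a median of 0.33 beside 0.00. The 3 comparisons share libraries, so their counts are not independent. In the tail below Il2, 6.59% of tested genes were at least as low for Old + Fumarate over Old and 1.39% for Old + Fumarate over Young.

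**Figure D3:**
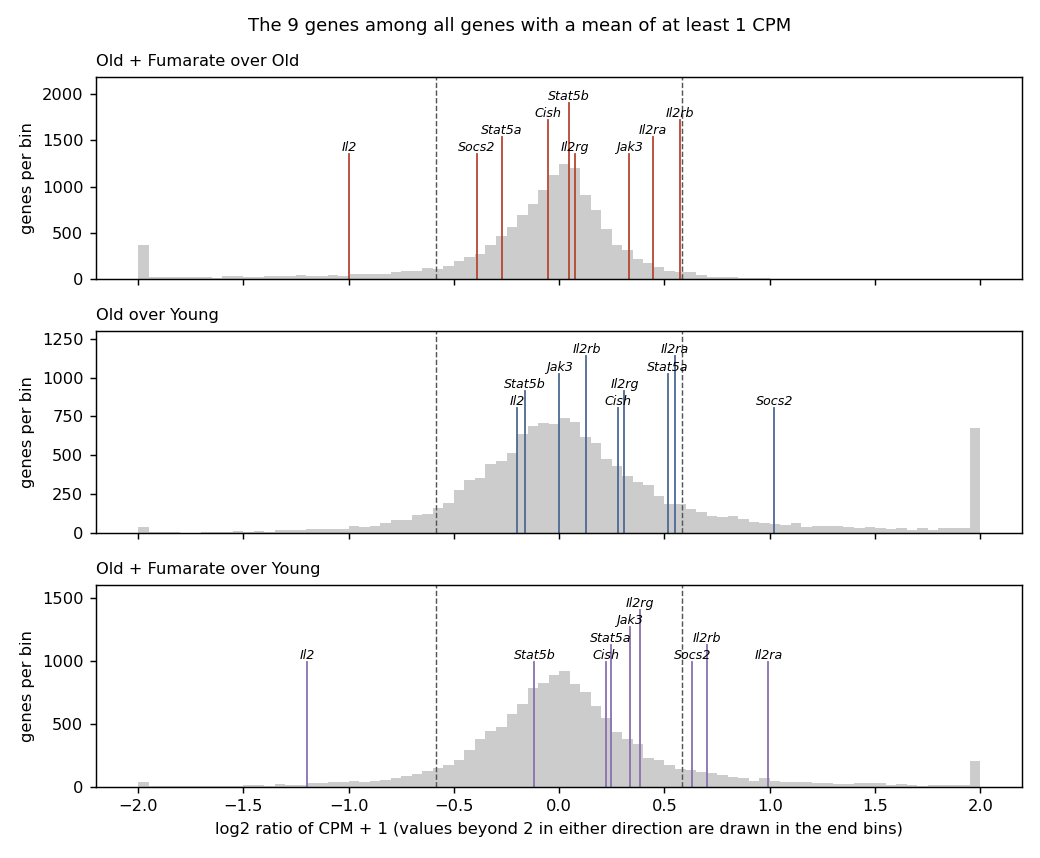
Histograms of the log2 ratio of CPM + 1 over 13750 tested genes for the 3 pairs of libraries, with the 9 genes drawn as labelled lines and 1.5-fold as dashed lines. Most of the 9 lie within the dashed lines, and Il2 lies outside on the low side in the upper and lower panels.

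Scaling decides some of these calls. When libraries were set to the geometric mean of the T cell identity list, the median of all tested genes itself moved to −0.21 for Old + Fumarate over Old, 0.50 for Old over Young and 0.28 for Old + Fumarate over Young. On that scale Il2ra was at 0.25 for Old + Fumarate over Old, 1.05 for Old over Young and 1.30 for Old + Fumarate over Young. Il2 was at −1.19 for Old + Fumarate over Old, 0.28 for Old over Young and −0.91 for Old + Fumarate over Young. The sign of Il2 for Old over Young therefore turns, while its ratios for Old + Fumarate stay below 0. On that scale Il2rg for Old + Fumarate over Old turned to −0.13 and Stat5b for Old over Young to 0.34. The signs of Stat5b for the other pairs turned too (−0.15 for Old + Fumarate over Old and 0.19 for Old + Fumarate over Young). Jak3 for Old over Young was at 0.50 with T cell identity scaling and 0.23 without Trat1 in it. With upper-quartile scaling Jak3 for Old over Young was at −0.09 and Cish for Old + Fumarate over Old at 0.02. Of that list Trat1, an adaptor of the antigen receptor, was at 0.577 CPM in Old + Fumarate, 0.348 CPM in Old and 12.4 CPM in Young, and without it (a choice made after its values were seen) the medians of all genes were −0.18 for Old + Fumarate over Old, 0.25 for Old over Young and 0.06 for Old + Fumarate over Young.

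Other genes of the pathway are given by lists, 98 genes besides the 9, of which 96 had a mean of at least 1 CPM. Past 1.5-fold, 2 were higher and 13 lower for Old + Fumarate over Old, beside 2.15% and 11.2% of all tested genes. In Old over Young, 21 were higher and 10 lower, beside 16.5% and 6.73%. Against Young, Old + Fumarate had 14 higher and 10 lower, beside 10.5% and 6.79%. These shares of all tested genes are also the background for the counts of each list below and of the marker lists. With few genes per list, a count near its share is no result about that list.

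Of the cytokines and receptors that share the gamma chain, 8 of 10 were tested. None was higher and 1 was lower for Old + Fumarate over Old (median −0.23), for Old over Young 4 were higher and 1 lower (median 0.59), and for Old + Fumarate over Young 5 were higher and 1 lower (median 0.92). Il21, a cytokine of helper cells, was at 41.0 CPM in Old + Fumarate, 66.1 CPM in Old and 2.06 CPM in Young. Il9 was at 5.56 CPM in Old + Fumarate, 6.31 CPM in Old and 0.317 CPM in Young. Il4 was at 1.44 CPM in Old + Fumarate, 2.43 CPM in Old and 0.171 CPM in Young. These 3 cytokine genes were highest in Old and lowest in Young, whereas the lowest value of Il2 was in Old + Fumarate. Il4 was low throughout, and its value in Young rests on few reads, as 3 reads are 0.0732 CPM there. The basophil and mast cell markers given above had the same order of libraries as these 3 genes, and their part here was not tested. Il7r, the receptor of interleukin 7 that interleukin 2 signalling is known to lower, was at 102 CPM in Old + Fumarate, 75.9 CPM in Old and 48.2 CPM in Young.

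Among 21 kinases and adaptors downstream of the receptor, 17 were within 1.5-fold and 4 lower for Old + Fumarate over Old, and 17 were within it and 4 higher for Old over Young. Both comparisons use the Old library, and Syk, Gab2, Sos1 and Ptpn11 were the 4 in each. Syk, a kinase of B cells, platelets and myeloid cells that is low in most T cells, was at 14.4 CPM in Old + Fumarate, 133 CPM in Old and 1.29 CPM in Young. Gab2, an adaptor protein, was at 9.67 CPM in Old + Fumarate, 23.0 CPM in Old and 4.17 CPM in Young. The platelet and basophil markers were highest in the same Old library, as given above, and their part here was not tested. Ptpn11, the phosphatase SHP2, was at 134 CPM in Old + Fumarate, 229 CPM in Old and 127 CPM in Young. Sos1, which activates RAS, was at 37.8 CPM in Old + Fumarate, 63.2 CPM in Old and 28.1 CPM in Young. Against Young, Old + Fumarate had 2 higher (Syk and Gab2) and 0 lower. The medians of this list were 0.02 for Old + Fumarate over Old, 0.12 for Old over Young and 0.07 for Old + Fumarate over Young.

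Of 8 other JAK and STAT genes, 2 were lower and 0 higher for Old + Fumarate over Old (median 0.04), 1 lower and 0 higher for Old over Young (median −0.14) and 3 lower and 0 higher for Old + Fumarate over Young (median −0.15). Stat2, a STAT of interferon signalling, was at 44.1 CPM in Old + Fumarate, 63.1 CPM in Old and 72.7 CPM in Young. Jak2 was at 128 CPM in Old + Fumarate, 198 CPM in Old and 194 CPM in Young. Stat4, a STAT of interleukin 12 signalling, was lowest in Old, with 194 CPM in Old + Fumarate, 139 CPM in Old and 211 CPM in Young. In the SOCS family besides Socs2, 1 of 6 was lower and 0 higher for Old + Fumarate over Old (median 0.00), 2 were higher and 0 lower for Old over Young (median 0.10) and 1 was higher and 0 lower for Old + Fumarate over Young (median 0.03). Socs3 was at 97.5 CPM in Old + Fumarate, 90.5 CPM in Old and 58.8 CPM in Young, and Socs5 at 7.07 CPM in Old + Fumarate, 15.5 CPM in Old and 9.12 CPM in Young. Socs6 and Socs7 differed by less than 1.5-fold in every pair.

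Of 18 genes that STAT5 can induce, 1 was higher and 1 lower for Old + Fumarate over Old (median 0.01), 7 higher and 1 lower for Old over Young (median 0.35) and 5 higher and 1 lower for Old + Fumarate over Young (median 0.31). Gzmb, a granule protease of killer cells, was at 8201 CPM in Old + Fumarate, 6290 CPM in Old and 3098 CPM in Young. Prdm1, which encodes the repressor BLIMP1 and also lowers Il2, was at 17.5 CPM in Old + Fumarate, 23.9 CPM in Old and 2.46 CPM in Young. Pim2, a survival kinase, was the member past 1.5-fold lower than in Young, at 190 CPM in Old + Fumarate, 206 CPM in Old and 358 CPM in Young. Foxp3, the regulatory T cell factor, was at 1.54 CPM in Old + Fumarate, 4.11 CPM in Old and 1.04 CPM in Young, so the libraries held little RNA of that gene. Regulatory T cells carry much CD25, and the 12 genes of their list went in different directions, with 1 higher and 4 lower for Old + Fumarate over Old (median −0.40) and 5 higher and 2 lower for Old over Young (median 0.45). Old + Fumarate over Young had 2 higher and 4 lower (median 0.23).

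The 5 genes that interleukin 2 or STAT5 is known to lower did not move one way. With 1 higher and 2 lower for Old + Fumarate over Old their median was 0.00, for Old over Young 2 were higher and 2 lower (median 0.22), and for Old + Fumarate over Young 1 was higher and 1 lower (median −0.16). Il6ra, a receptor chain for interleukin 6, was at 10.6 CPM in Old + Fumarate, 10.6 CPM in Old and 23.1 CPM in Young. Its partner Il6st was at 22.6 CPM in Old + Fumarate, 38.5 CPM in Old and 32.9 CPM in Young. Tcf7, a factor of resting T cells, was at 150 CPM in Old + Fumarate, 93.3 CPM in Old and 167 CPM in Young.

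Most of the regulators of Il2 transcription were within 1.5-fold. Of 17 activators, 0 were higher and 2 lower for Old + Fumarate over Old (median 0.10), 2 higher and 2 lower for Old over Young (median −0.22) and 0 higher and 1 lower for Old + Fumarate over Young (median −0.08). The 2 lower for Old + Fumarate over Old were Egr1 and Egr2, early response factors. Egr2 and Egr3 were listed as activators, but both are also known to restrain T cell activation. The counts are therefore of the list as chosen. Egr1 was at 37.4 CPM in Old + Fumarate, 83.9 CPM in Old and 36.4 CPM in Young, and Egr2 at 14.3 CPM in Old + Fumarate, 23.2 CPM in Old and 14.5 CPM in Young. Egr3 had another order, at 24.6 CPM in Old + Fumarate, 22.9 CPM in Old and 49.9 CPM in Young. Of 10 repressors, none was past 1.5-fold for Old + Fumarate over Old (median −0.07), 3 were higher and 2 lower for Old over Young (median 0.22) and 3 higher and 1 lower for Old + Fumarate over Young (median 0.13). Zfp36l2, which encodes an RNA-binding protein that promotes mRNA decay, was at 239 CPM in Old + Fumarate, 279 CPM in Old and 156 CPM in Young, and its relative Zfp36l1 at 54.6 CPM in Old + Fumarate, 73.4 CPM in Old and 107 CPM in Young. Ikzf3, the factor Aiolos, was at 34.1 CPM in Old + Fumarate, 39.2 CPM in Old and 23.4 CPM in Young.

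Of 10 phosphatases and ubiquitin ligases that act on kinases or receptors of the pathway, 0 were past 1.5-fold for Old + Fumarate over Old (median 0.19), 2 were lower and 0 higher for Old over Young (median −0.28) and 1 was higher and 2 lower for Old + Fumarate over Young (median −0.22). Dusp4, a phosphatase of MAP kinases, was at 204 CPM in Old + Fumarate, 171 CPM in Old and 308 CPM in Young. Dusp5, of the same family, ran in the order of Il2ra, at 266 CPM in Old + Fumarate, 201 CPM in Old and 164 CPM in Young. Dusp6 was at 26.5 CPM in Old + Fumarate, 34.1 CPM in Old and 41.2 CPM in Young, and Cblb, a ubiquitin ligase, at 247 CPM in Old + Fumarate, 187 CPM in Old and 303 CPM in Young. With T cell identity scaling the medians of this list turned to −0.01 for Old + Fumarate over Old, 0.21 for Old over Young and 0.08 for Old + Fumarate over Young. The medians of 6 other lists turned with it in at least 1 comparison, all of them within 0.25 of 0 before.

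**Figure D4:**
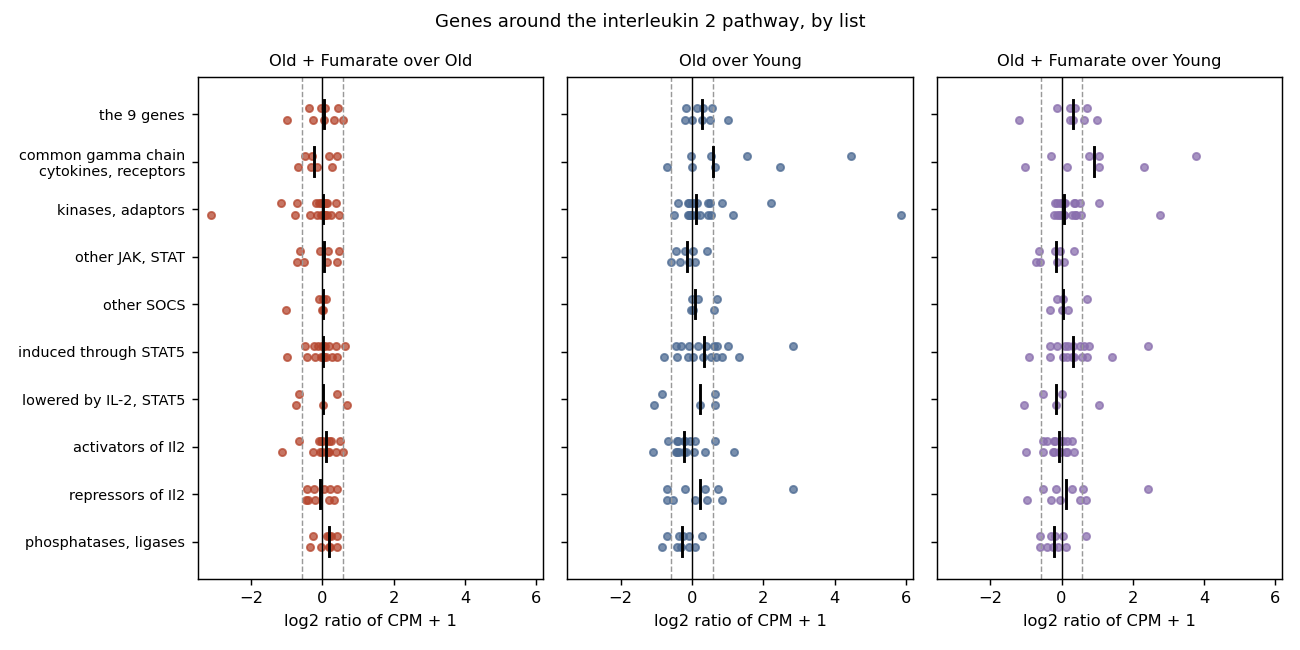
Log2 ratio of CPM + 1 for each tested gene of the 9 genes and of 9 lists around them, in the 3 pairs of libraries, with black bars at list medians and dashed lines at 1.5-fold. Most genes lie between the dashed lines, and the point farthest right for Old over Young is Syk at 5.87.

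The genes whose pattern over the 3 libraries was nearest to that of Il2 were taken from 8327 protein-coding genes with a mean of at least 10 CPM, by distance in the log2 ratios of Old + Fumarate and of Old over Young. They were Igf1r, the receptor of insulin-like growth factor 1, at 25.4 CPM in Old + Fumarate, 51.6 CPM in Old and 57.7 CPM in Young (distance 0.06), Spry1, a restrainer of RAS signalling, at 21.5 CPM in Old + Fumarate, 42.5 CPM in Old and 51.3 CPM in Young (distance 0.07), and Krba1 at 5.7 CPM in Old + Fumarate, 12.8 CPM in Old and 14.1 CPM in Young (distance 0.08). Within a distance of 0.25 there were 12 genes for Il2 and 51 for Il2ra. Nearest to Il2ra were Zdhhc2 at 56.6 CPM in Old + Fumarate, 41.9 CPM in Old and 28.8 CPM in Young, Ramp3 at 168 CPM in Old + Fumarate, 130 CPM in Old and 85.5 CPM in Young, and Myo19 at 40.8 CPM in Old + Fumarate, 31.2 CPM in Old and 20.8 CPM in Young, each at a distance of 0.05. With 3 libraries such likeness is a description only.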

How the data were processed

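Per the labels' protocols, 500 ng of total RNA per library was prepared with a SMARTER kit, from cells grown with 10% serum. STAR, Partek and the build mm10 are named in the submitters' processing notes, with versions, annotation and strand setting not stated there. The values the authors deposited are CPM: each column sums to 1000000. The step of low values gave the estimated depths. With a tolerance of 0.02 reads, 58.4% to 68.1% of values were whole reads, so whole reads were not recovered and no count-based test was run. The counting intervals still treat the estimated reads, rounded to whole numbers, as counts.

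With 1 library per group no test was run. Log2 ratios are of CPM + 1, the limit was 1.5-fold, and tested genes had a mean of at least 1 CPM. Intervals are exact 95% Clopper-Pearson intervals on the estimated reads, for counting error only. A value of 0 allows up to 3 reads, 0.217 CPM in Old + Fumarate, 0.174 CPM in Old and 0.0732 CPM in Young. Exon lengths, overlaps and shared 50-base windows are from GENCODE M21 (GRCm38), where 17191 of 17355 symbols found had the table's position, with its end moved back by 1 base. Promoters are from RefSeq.

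The members and lists were chosen with earlier results of these data known. Named are the 9 genes, up to 4 genes per list with the largest ratio, and the 3 genes nearest in pattern to Il2 and to Il2ra. Ctss and Eomes were named after their values were seen. Some genes the rule names are not reported here. Counting past the limit was checked on simulated reads, with folds of 2 or more in genes with a mean of at least 10 CPM. That check does not bear on ratios near the limit of 1.5-fold. Alternatives were 4 planned scalings, a smaller set of genes in the total, other constants, limits and minimums, and thinned reads. Tools were Python 3.11.15 with scipy 1.17.1, pandas 2.3.3, numpy 2.4.6 and, for plots, matplotlib 3.10.9.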

Additional observations from a re-analysis of the deposited data

How the results depend on the processing

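No paired analysis was possible because each group has 1 library and the columns carry no replicate number. Of 243 ratios of the 9 genes under other settings, 173 were rated the same as the main value and 70 as moved. None that was past 1.5-fold turned its sign, but the scalings could hardly have done so. Under them the median of all tested genes reached 0.50 at most, below the limit of 0.58 on the log2 scale. Among ratios under the limit some signs did turn, as given above. All 18 ratios within a library stayed within their counting interval with CPM + 1. For Old + Fumarate over Old, the number of the 9 genes higher was 1 in place of 0 with TMM, median-of-ratios and upper-quartile scaling (Il2rb), and the number lower was 2 with T cell identity scaling and 0 with a 2-fold limit, which Il2 missed narrowly. For Old over Young the number higher was 6 with T cell identity scaling and 3 without Trat1 in that list, an addition made after seeing the data, in place of 1. For Old + Fumarate over Young it was 5 with T cell identity scaling and 0 with a 2-fold limit, in place of 3. With a constant of 5 CPM it was 2, because Socs2 was then at 0.57, just under the limit. Shares of all tested genes under these settings are not given here, so these counts have no background beside them.

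Of the other pathway genes, T cell identity scaling gave 0 higher and 19 lower for Old + Fumarate over Old. It gave 40 higher and 1 lower for Old over Young and 30 higher and 5 lower for Old + Fumarate over Young. Without Trat1 there were 0 higher and 19 lower for Old + Fumarate over Old. Old over Young then had 31 higher and 4 lower, and Old + Fumarate over Young 16 higher and 6 lower. A 2-fold limit gave 0 higher and 5 lower for Old + Fumarate over Old, 10 higher and 2 lower for Old over Young, and 8 higher and 2 lower for Old + Fumarate over Young. The cause was not tested, beyond the stricter limit itself and the shift of all genes with T cell identity scaling. Without shares of all tested genes under the same settings, these counts cannot be read as particular to the pathway. Of 144 counts over all alternatives, 121 were within 1.5 times the main one. Depth limits Il2 most, which rests on 137 reads in Old + Fumarate.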
